A study of Homo sapiens with 31 samples.

Results

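A set of 221 transcripts was followed through a transcription block in libraries labelled as PANC-1 cells: those whose abundance was at least 4 times the 0 h level at 4 h in libraries labelled NC and at 6 h in libraries labelled KHSRP knockout (KO). PANC-1 is an established human pancreatic cancer cell line. Markers given below go against that name for the libraries labelled NC. The members were chosen from read counts of the actinomycin D series. Counts were divided by the library total and scaled by a common factor (CPM), then averaged over 2 libraries per genotype label and time. A member had a mean of 10 CPM or more at NC 4 h and at KO 6 h, and each of these means was at least 4 times the 0 h mean plus 0.5 CPM of the same label. Of 43682 genes in the tables, 8969 had 10 CPM or more at both times and 269 passed both folds. Of these 269, 48 were left out by name, which left 221. Symbols starting with ZNF, HIST, KLF, DUSP, SPRY, FOS, JUN, IER, CXCL, CCL, IL, NFKBI, GADD45 or SNHG were barred. So were MYC, MCL1, EGR1, ATF3, HES1 and ID1 to ID4. The levels at 0 h, NC 4 h and KO 6 h therefore chose the members and are given as a description with no test.

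The groups used were libraries labelled as KHSRP knockout under actinomycin D for 0, 2, 4, 6 and 8 h (2 libraries at each time), libraries labelled as wild type (NC) under actinomycin D for the same times (2 libraries each), libraries labelled as KHSRP knockout without that treatment (3 libraries, called steady state) and NC libraries without it (3 libraries). KO, NC and the times below are the names on the labels. The labels give every group as the same cell line and do not give the number of knockout clones. Nor is it said that replicates are separate cultures: the p-values below describe how libraries of a group spread, and that spread may be technical only. The 5 crosslinking samples of the series (miCLIP and PAR-CLIP) were not analysed here.

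Actinomycin D intercalates into DNA and stops RNA polymerases, and the fall of a transcript after it is commonly read as that transcript's decay. Immediate-early and other short-lived transcripts encode transcription factors, secreted signals and feedback inhibitors, and they are typically induced and removed quickly. KHSRP is an RNA-binding protein known to bind AU-rich elements and to promote decay of the messages that carry them. The members with the largest folds included the immediate-early gene CCN1, the kinase genes SGK1, NUAK2 and PLK2, and the transcriptional regulators ELF3, CSRNP1, CITED2 and TFAP2C.

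Library totals were 19177934 to 25768060 counts in the actinomycin D set and 33706181 to 43278138 in the steady-state set. KHSRP itself was at 134 to 164 CPM in the KO-labelled and 406 to 434 CPM in the NC-labelled actinomycin D libraries, and at 9.68 to 10.98 CPM in KO and 62.5 to 63.6 CPM in NC steady-state libraries. The KO-labelled actinomycin D libraries were thus lower in KHSRP than the NC-labelled ones, but above the NC steady-state libraries, which were counted in separate tables. This level does not by itself bear out a knockout. The actinomycin D labels also went with genes other than KHSRP. CDKN2A, a tumour suppressor gene known to be deleted in PANC-1, had 0 counts in all KO-labelled libraries and 2728 to 5476 counts in the NC-labelled libraries, and at most 6 counts in any steady-state library. The ductal keratin KRT19 was at 367 to 467 CPM in the KO-labelled and 0 to 0.646 CPM in the NC-labelled libraries. The reverse held for KRT7, another ductal keratin, at 9.93 to 17.3 CPM in the KO-labelled and 585 to 890 CPM in the NC-labelled libraries. The libraries labelled NC therefore go against the cell line they are labelled with. Differences between the 2 labels in this set cannot be told apart from a difference between the cells. The 5 ductal epithelium markers together reached 4420 to 5840 CPM in the KO-labelled and 3160 to 4230 CPM in the NC-labelled libraries. Most of each sum was KRT8 and KRT18. KRT8 was at 2491 to 3708 CPM in the KO-labelled and 1517 to 2110 CPM in the NC-labelled libraries. KRT18 was at 1473 to 1787 CPM and 1054 to 1317 CPM. EPCAM was low in both, at 5.2 to 8.91 CPM in the KO-labelled and 0.233 to 1.12 CPM in the NC-labelled libraries. All 5 immune markers together came to 131 to 225 CPM in the KO-labelled and 9.90 to 14.6 CPM in the NC-labelled libraries, nearly all of it CD68, while PTPRC, CD3E and MS4A1 were at 0.295 CPM or less. The 6 fibroblast markers summed to 29.4 to 67.7 CPM in the KO-labelled and 27.8 to 36.5 CPM in the NC-labelled libraries with COL1A2, DCN and LUM near 0. Within them PDGFRB was at 0 to 0.515 CPM in the KO-labelled and 19.6 to 25.5 CPM in the NC-labelled libraries. COL1A1 was at 22.6 to 58.2 CPM in the KO-labelled and 6.19 to 11.4 CPM in the NC-labelled libraries. The 4 endothelial markers summed to 6.67 to 12.9 CPM in the KO-labelled and 2.05 to 4.89 CPM in the NC-labelled libraries, and the 5 acinar and 5 endocrine markers each stayed under 0.5 CPM. Their part in the results was not tested.

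All 221 members had their highest mean at KO 6 h in the KO label and at NC 4 h in the NC label, and for every member both libraries of the highest time lay above the other 8 libraries of that label. The rule asks only for a fold over 0 h, so this was not given by it, yet it is not particular to the members: of genes reaching 10 CPM at any time, 45.3% of 10298 were highest at KO 6 h and 46.6% of 10175 at NC 4 h. Relative to the highest mean, the median member stood at 16.6% at 0 h, 13.4% at 2 h, 41.7% at 4 h, 100% at 6 h and 13.4% at 8 h in the KO label. In the NC label it stood at 14.6%, 30.9%, 100%, 18.3% and 13.7% at the same 5 times. The second-highest time was KO 4 h for 219 members and NC 2 h for 212, against 88.5% of 4443 other genes highest at KO 6 h and 85.7% of 4523 other genes highest at NC 4 h. So in both labels most members were raised at the time before the highest one and were back near the 0 h level at the time after it. Whether the times on these labels are right was not tested. The highest level of so many genes fell at a single middle time of a transcription block, and at a different one in each label. Every time and every comparison of times here is that of the labels.

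**Figure D1:**
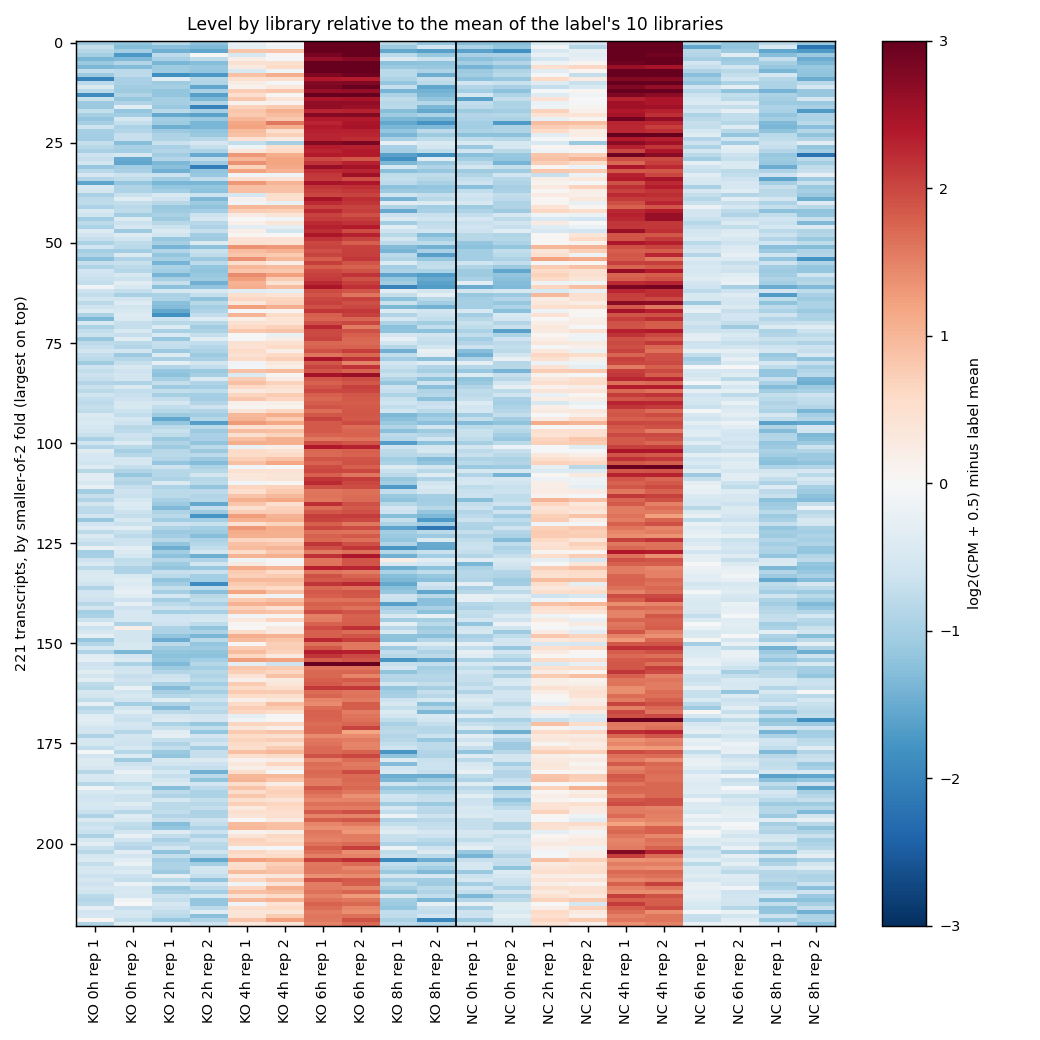
Each row is 1 of the 221 transcripts and each column 1 actinomycin D library, KO-labelled on the left and NC-labelled on the right; colour gives log2(CPM + 0.5) minus the mean of that label's 10 libraries. Both KO 6 h and both NC 4 h libraries are the darkest red columns, with paler red at KO 4 h and NC 2 h.

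Together the members took 1.59% and 1.60% of all counts at KO 6 h and 0.1999% to 0.626% at the other KO times. They took 1.54% and 1.55% at NC 4 h and 0.1795% to 0.453% at the other NC times. In the steady-state libraries, which were counted in separate tables, they took 1.12% to 1.23% in KO and 1.14% to 1.16% in NC. CPM is a share of the library, and in bulk libraries fewer cells with a transcript and less of it per cell cannot be told apart. Over the same times the cytosolic ribosomal protein genes moved the other way: their summed share was lowest at KO 6 h (3.07% and 3.10%) and at NC 4 h (3.99% and 4.02%), and reached 4.41% and 4.49% at KO 8 h and 5.77% and 5.91% at NC 8 h. The molecule totals that the authors deposited fell to 4.03e+10 and 4.18e+10 at KO 8 h, against 1.62e+11 and 1.48e+11 at KO 0 h. They fell to 3.55e+10 and 3.38e+10 at NC 8 h, against 8.56e+10 and 8.26e+10 at NC 0 h. The part of these shifts in the members' profile was not tested.

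The fold over 0 h had a median of 5.52 at KO 6 h (range 4.02 to 30.6) and of 6.40 at NC 4 h (range 4.01 to 83.2). The largest KO 6 h fold was that of DDIT4, an mTORC1 inhibitor, and the largest NC 4 h fold that of CCN1. Members just inside the threshold had smaller folds of 4.01 (KMT2E), 4.02 (DNAAF2) and 4.03 (TP53RK), and the genes just outside it 3.99 (ZCCHC3), 3.99 (PPRC1) and 3.98 (ETS2). The level at KO 6 h over that at NC 4 h had a median of 0.897 and ran between 0.0808 for IRS2, an insulin receptor substrate, and 22.1 for ERRFI1, an inhibitor of the EGF receptor. It was above 1 for 98 members and below 1 for 123.

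CCN1, a secreted matricellular protein induced by serum and by the YAP and SRF pathways (hg19 chr1:86046444-86049633), had 91.6 and 81.8 CPM at 0 h, 60.8 and 56.3 at 2 h, 299 and 302 at 4 h, 1513 and 1492 at 6 h and 57.1 and 53.8 at 8 h in the KO-labelled libraries. In the NC-labelled libraries it had 8.27 and 7.01 CPM at 0 h, 18.7 and 21.6 at 2 h, 690 and 664 at 4 h, 14.4 and 11.9 at 6 h and 8.53 and 7.67 at 8 h. The high time stood clear of the other 4 in each label, and CCN1 was lower in the NC-labelled libraries at every time but 4 h. SGK1, a serum- and glucocorticoid-regulated kinase, had 4.97 and 4.59 CPM at 0 h, 5.85 and 4.46 at 2 h, 9.33 and 11.1 at 4 h, 112 and 105 at 6 h and 5.95 and 4.66 at 8 h in the KO label. In the NC label SGK1 had 11.3 and 11.4 CPM at 0 h, 20.9 and 19.1 at 2 h, 387 and 384 at 4 h, 14.8 and 12.4 at 6 h and 15.9 and 12.5 at 8 h. It was the member with the largest smaller fold, 20.6 at KO 6 h and 32.6 at NC 4 h.

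**Figure D2:**
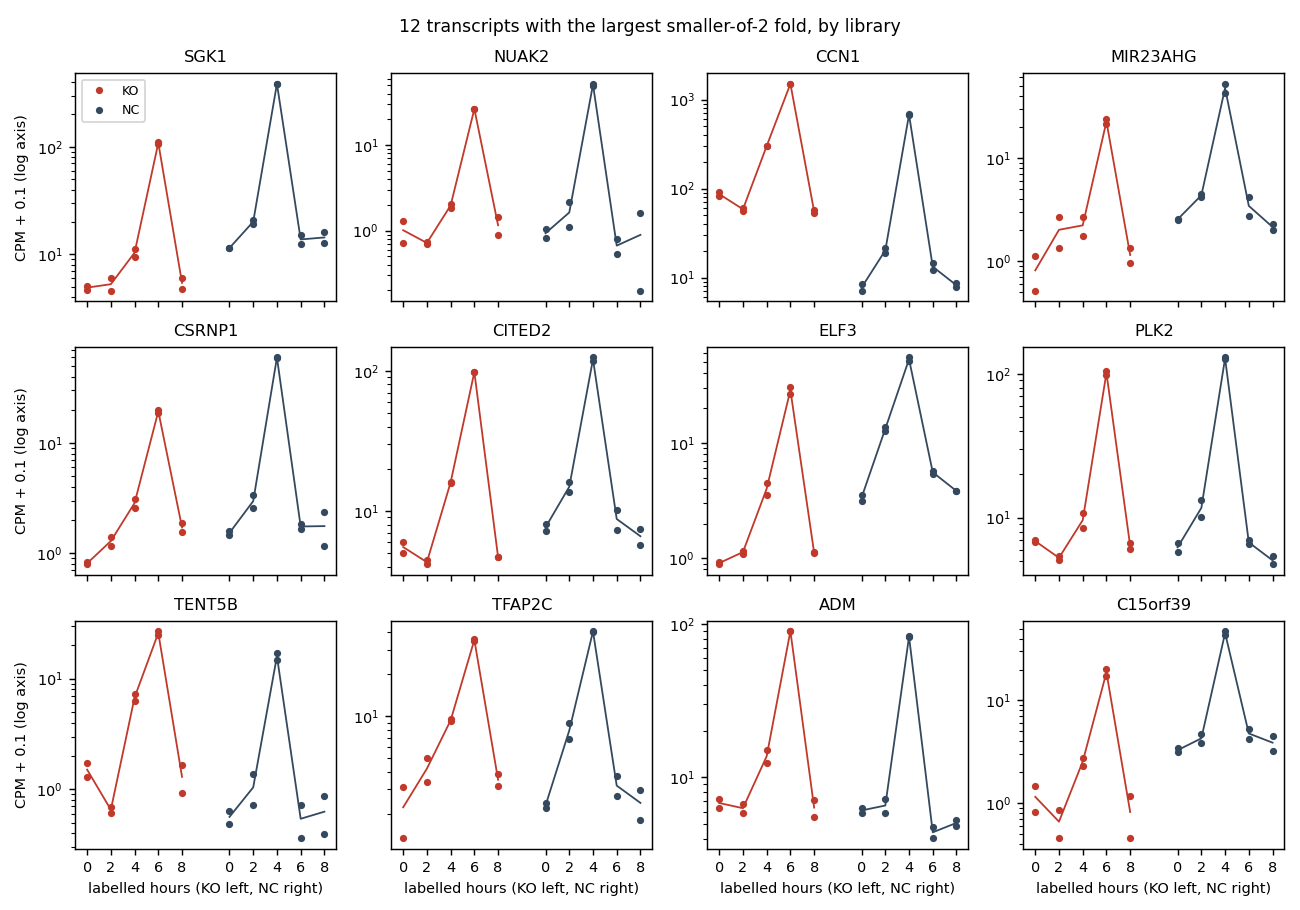
CPM plus 0.1 on a log axis by labelled hours for the 12 members with the largest smaller fold; points are single libraries, lines join the means of 2, KO-labelled red on the left and NC-labelled blue on the right. In all 12 panels the highest points are at KO 6 h and NC 4 h.

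NUAK2, a kinase of the AMPK family, had 26.1 and 26.6 CPM at KO 6 h and at most 1.98 CPM at any other KO time, with 52.3 and 49.5 CPM at NC 4 h and at most 2.05 CPM at any other NC time. ADM, which encodes the vasodilator peptide adrenomedullin, had 89.2 and 89.8 CPM at KO 6 h and 5.46 to 15.0 CPM at the other KO times, with 81.8 and 82.9 CPM at NC 4 h and 3.92 to 7.15 CPM at the other NC times. ELF3, an epithelial transcription factor of the ETS family, had 30.5 and 26.5 CPM at KO 6 h and 0.783 to 4.38 CPM at the other KO times, with 55.1 and 50.8 CPM at NC 4 h and 3.06 to 13.7 CPM at the other NC times. TENT5B, of a family of poly(A) polymerases, had 24.7 and 26.9 CPM at KO 6 h and 0.512 to 7.17 CPM otherwise, with 17.0 and 14.8 CPM at NC 4 h and 0.262 to 1.26 CPM otherwise. For these 4 genes no library of another time came within reach of the libraries at KO 6 h or NC 4 h of its label.

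Their promoters are shown because ELF3, ADM and NUAK2 hold a TATA motif and TENT5B an AP-1-type motif, both of which are known from promoters of quickly induced genes. Each covers 250 bases before to 50 bases after the RefSeq start, from RefSeq on GRCh38.p14, read 5′ to 3′ on the gene's strand. They lie at chr1:202010337-202010636 (ELF3, plus strand), chr11:10304823-10305122 (ADM, plus strand), chr1:205321696-205321995 (NUAK2, minus strand) and chr1:27012801-27013100 (TENT5B, minus strand). Capitals mark TATAAA on either strand (TTTATA in NUAK2 reads TATAAA on the other strand) and TGANTCA. Relative to the start, the TATAAA began at -34 in ELF3, -27 in ADM and -31 in NUAK2, and the TGANTCA at -133 in TENT5B. Among the other members with the largest folds and a RefSeq promoter, SGK1 held TATAAA at -96 on the opposite strand. MIR23AHG, CSRNP1, CITED2, PLK2 and C15orf39 held neither motif.
ELF3: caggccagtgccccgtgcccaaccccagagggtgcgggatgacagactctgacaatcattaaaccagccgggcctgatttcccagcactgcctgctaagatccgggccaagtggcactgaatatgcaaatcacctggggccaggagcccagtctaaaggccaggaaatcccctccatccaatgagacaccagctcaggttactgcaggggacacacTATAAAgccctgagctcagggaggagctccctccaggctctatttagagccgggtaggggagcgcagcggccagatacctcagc
ADM: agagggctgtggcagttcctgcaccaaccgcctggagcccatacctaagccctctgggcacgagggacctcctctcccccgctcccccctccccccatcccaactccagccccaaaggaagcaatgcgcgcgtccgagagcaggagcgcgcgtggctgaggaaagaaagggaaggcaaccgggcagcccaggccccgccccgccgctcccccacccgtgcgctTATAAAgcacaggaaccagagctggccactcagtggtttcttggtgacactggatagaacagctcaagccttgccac
NUAK2: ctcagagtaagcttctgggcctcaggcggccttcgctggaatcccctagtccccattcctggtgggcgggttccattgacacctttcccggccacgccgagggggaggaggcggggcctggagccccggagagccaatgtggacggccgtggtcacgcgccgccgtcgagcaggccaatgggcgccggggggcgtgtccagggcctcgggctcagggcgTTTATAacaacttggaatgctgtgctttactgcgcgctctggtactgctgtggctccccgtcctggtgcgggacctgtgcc
TENT5B: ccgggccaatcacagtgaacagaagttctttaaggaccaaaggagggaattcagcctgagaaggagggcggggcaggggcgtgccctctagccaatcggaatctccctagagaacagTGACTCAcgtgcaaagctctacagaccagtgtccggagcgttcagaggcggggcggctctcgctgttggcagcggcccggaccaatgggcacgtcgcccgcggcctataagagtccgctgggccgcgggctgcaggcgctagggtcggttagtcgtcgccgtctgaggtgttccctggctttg

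Of the 221 members 178 matched a RefSeq promoter. TATAAA on either strand was present in 20 of them, 11.2%, against 4.58% of 7144 promoters of other genes with 10 CPM or more at both times and 11.95% of all 27305 promoters. GGGCGG was in 71.9% of member promoters, 73.2% of those of the other expressed genes and 44.59% of all. CCAAT was in 39.3%, 37.4% and 35.7%. The cyclic AMP response element TGACGTCA was in 3.93%, 3.65% and 1.98%, the AP-1-type TGANTCA in 3.37%, 3.89% and 7.76%, and the CArG box, the site of SRF, in 0.562%, 1.08% and 1.29%. Both strands were searched, and no pair of these motifs was kept from overlapping. The median GC content was 65.7% over member promoters and 66.0% over those of the other expressed genes. A match is only a run of letters and was not tested as a site.

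The members had fewer exons than other expressed genes. The median number of separate exon blocks in the deposited gene models was 5 over the members and 11 over the 8748 other genes with 10 CPM or more at both times. A single block made up 24 members (10.9%, against 2.14% of the others), among them RHOB, SOX4, CEBPB, FOXQ1, IRF2BP1 and CITED4, and 1 or 2 blocks made up 25.8% of members and 4.69% of the others. Exonic length was close, with medians of 3760 and 3849 bases, so the sets differed in the number of blocks more than in length. By reference annotation 218 members were protein-coding and 3 were long non-coding RNAs, MIR23AHG, CEBPB-AS1 and SNRK-AS1. The sources used here do not give the use of strand in counting, so CEBPB-AS1 and SNRK-AS1 may share reads with the genes they overlap. The members were spread over the chromosomes, with 29 on chromosome 1 and 11 (4.98%) on chromosome 19, against 6.49% of the other expressed genes.

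The libraries that the rule did not use were tested next. Fits ran over all 20 actinomycin D libraries and 17715 genes with edgeR's quasi-likelihood test, and a call means a Benjamini-Hochberg adjusted p under 0.05. In the KO label, 205 of 221 members rose at 4 h against 2 h and 0 fell, with a median log2 change of 1.43 (all genes: 16.8% higher, 21.7% lower, median -0.06). No member was lower at an unadjusted p under 0.05 either, nor by DESeq2. In the NC label, 0 members rose and 186 fell at 8 h against 2 h, with a median of -1.01 (all genes: 18.3% higher, 20.4% lower, median -0.04). At NC 6 h against 2 h, 0 rose and 150 fell, with a median of -0.71 (all genes: 8.63% higher, 9.78% lower). None was higher in either NC comparison at an unadjusted p under 0.05 or by DESeq2, although 1 member was called higher at NC 8 h when NC 2 h replicate 1 was left out.

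At KO 4 h against 2 h the largest rises were those of TENT5B (log2 change 3.38 ± 0.37 SE, edgeR adjusted p = 3.39e-10), CCDC71 (2.98 ± 0.34, adjusted p = 1.12e-09), FKBPL, an FK506-binding-like protein (2.97 ± 0.46, adjusted p = 1.04e-06), CCDC12 (2.85 ± 0.28, adjusted p = 2.07e-11) and CENPC, which encodes a centromere protein (2.65 ± 0.29, adjusted p = 5.82e-10). CENPC had 11.2 and 9.87 CPM at KO 4 h, against 1.28 and 1.63 CPM at KO 2 h. These are low counts at 2 h: FKBPL had 3.71 and 3.82 CPM at KO 4 h, against 0.683 and 0.159 CPM at KO 2 h. Among abundant members CCN1 rose by 2.16 ± 0.06 (adjusted p = 2.95e-27) and the heat shock co-chaperone DNAJB1 by 2.13 ± 0.08 (adjusted p = 2.10e-24). The 16 members that did not pass included MIDN at 0.00 ± 0.11, MIR23AHG at -0.05 ± 0.31 and TRIB1 at -0.54 ± 0.30.

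At NC 8 h against 2 h the largest falls were those of C6orf47 (log2 change -2.64 ± 0.22 SE, edgeR adjusted p = 6.08e-13), the unfolded protein response factor XBP1 (-2.56 ± 0.13, adjusted p = 3.49e-19), HPS6, a subunit of a lysosome-related organelle complex (-2.39 ± 0.25, adjusted p = 1.21e-10), the stress kinase EIF2AK3, also called PERK (-2.38 ± 0.17, adjusted p = 6.66e-15), and the death receptor adaptor FADD (-2.37 ± 0.21, adjusted p = 3.64e-12). XBP1 had 7.24 and 7.47 CPM at NC 8 h, against 50.1 and 47.04 CPM at NC 2 h. The XBP1 libraries of NC 6 h, at 19.1 and 20.1 CPM, lay between them. At NC 6 h against 2 h the falls were led by NGDN (-1.88 ± 0.28), CCDC12 (-1.78 ± 0.24), HPS6 (-1.69 ± 0.22), the BMP antagonist NOG (-1.63 ± 0.24) and C6orf47 (-1.55 ± 0.20), with edgeR adjusted p of 4.55e-06, 5.42e-07, 3.92e-07, 3.23e-06 and 2.14e-07. NGDN had 2.79 and 3.65 CPM at NC 6 h, against 12.1 and 13.3 CPM at NC 2 h, with no overlap.

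**Figure D3:**
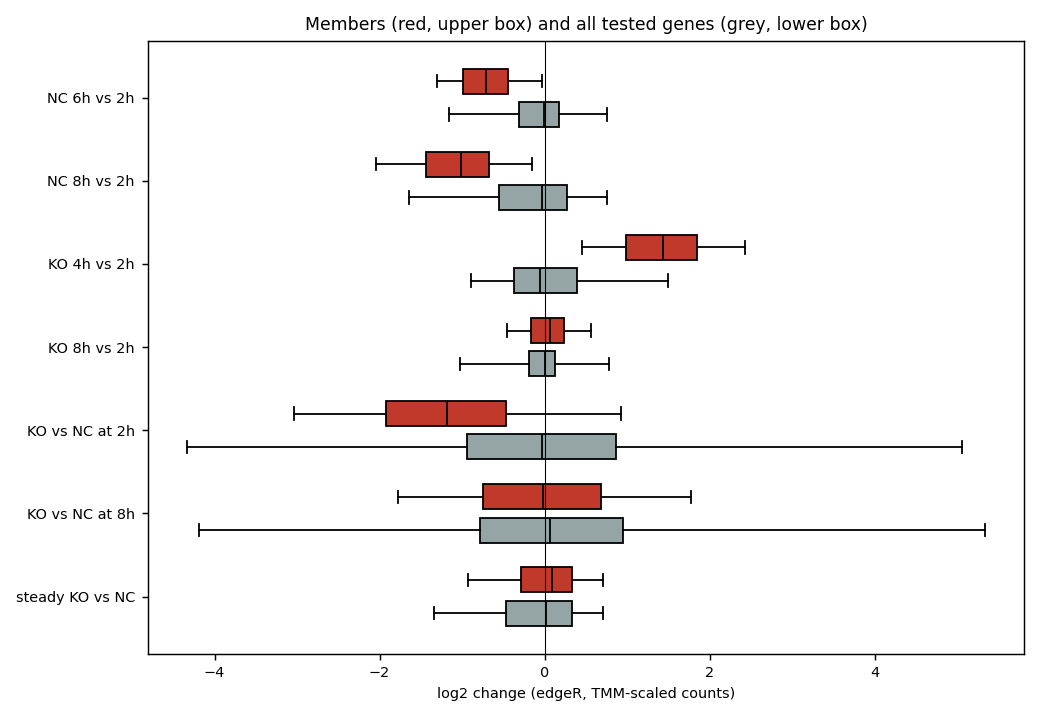
Boxes span the quartiles of log2 changes with whiskers at the 5th and 95th percentile, for the 221 members (220 at steady state; red, upper) and for all genes tested (grey, lower) in each comparison on the y axis. Member boxes lie left of 0 in both NC time comparisons and in KO against NC at 2 h, right of 0 at KO 4 h against 2 h, and across 0 at KO 8 h against 2 h, in KO against NC at 8 h and at steady state.

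The NC 8 h against 2 h and KO 4 h against 2 h comparisons share no library. A fall in the first together with a rise in the second was called for 178 members, which is 95.7% of the members that fell, 86.8% of those that rose and 80.5% of all, against 12.4% of all genes tested. These calls were not counted among other genes highest at NC 4 h or KO 6 h. Of other genes highest at NC 4 h, 85.7% had NC 2 h second highest, and of those highest at KO 6 h, 88.5% had KO 4 h. Across the 221 members the 2 log2 changes had a Spearman coefficient of -0.59, given as a description over genes that share the same libraries. A rise at KO 4 h alone was called for 27 members and a fall at NC 8 h alone for 8. The 8 members with neither call were the pseudokinase TRIB1, the mediator subunit MED26, the phosphatase regulator PPP1R10, the TGF-beta inhibitor SMAD7, MIDN, SNRK-AS1, PLEKHF2 and the arrestin-like ARRDC3. MIDN had 22.6 and 23.9 CPM at KO 4 h against 19.9 and 20.6 CPM at KO 2 h, and 14.2 and 12.3 CPM at NC 8 h against 15.3 and 17.9 CPM at NC 2 h, but 115 and 108 CPM at KO 6 h and 106 and 98.6 CPM at NC 4 h. MIDN was thus raised at a single time in each label.

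**Figure D4:**
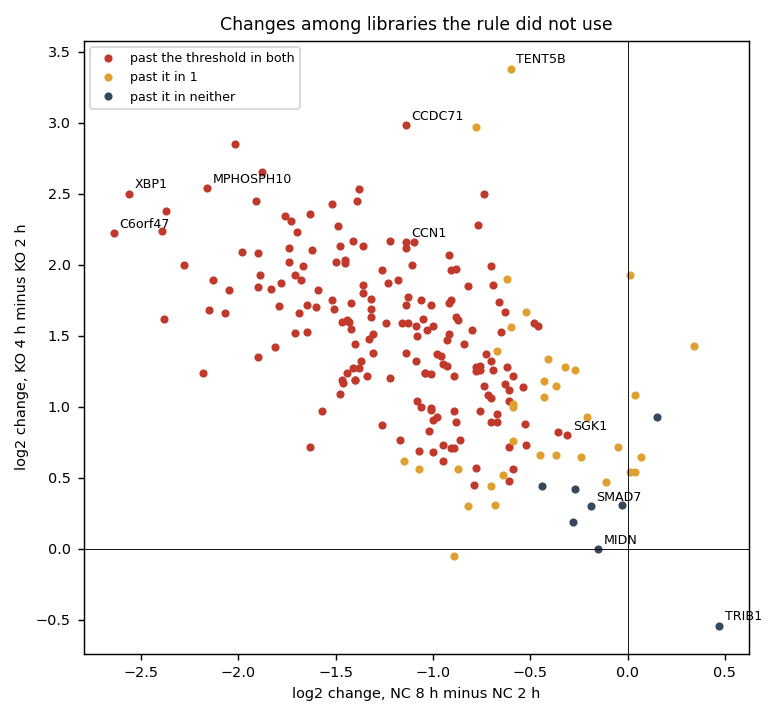
Each point is a member, with its log2 change at NC 8 h against 2 h on the x axis and at KO 4 h against 2 h on the y axis; colours show how many of the 2 comparisons passed the threshold. The 178 red points fill the upper left, with XBP1 and C6orf47 at its left edge and TRIB1 apart at the lower right.

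At KO 8 h against 2 h, both on either side of the high times, 4 members rose, 3 fell and 214 did not pass, with a median of 0.06 (all genes: 1.29% higher, 2.42% lower). The 4 were CCDC71 (1.34 ± 0.39 SE, edgeR adjusted p = 0.0413), the mitochondrial carrier SLC25A25 (1.02 ± 0.24, adjusted p = 0.00855), the APC/C inhibitor FBXO5 (0.66 ± 0.19, adjusted p = 0.0437) and ERRFI1 (0.23 ± 0.07, adjusted p = 0.0392). The 3 were the co-repressor IRF2BP1 (-1.16 ± 0.29, adjusted p = 0.0146), EIF2AK3 (-0.79 ± 0.18, adjusted p = 0.00887) and DNAJB1 (-0.51 ± 0.08, adjusted p = 0.000172). At an unadjusted p under 0.05, 19 were higher and 17 lower. Leaving out any 1 of the 4 libraries leaves 1 library in its group. Calls lost that way cannot show whether a change rested on the library left out. On the deposited molecule scale 0 members rose and 164 fell, where the median was -1.09 over all genes and -0.91 over members.

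The difference between the labels was then tested directly, as the 8 h against 2 h change in KO minus that in NC, a comparison added after the data had been seen. It was positive and called for 162 members and negative for 0 (at an unadjusted p under 0.05, 178 and 0; by DESeq2, 155 and 0), with a median of 1.08, against 11.1% and 10.8% of all genes and a median of 0.00. The choice of members bears on this, since NC 2 h is next before the high time NC 4 h, and KO 2 h is not next before KO 6 h. The median member stood at 30.9% of its highest mean at NC 2 h and at 13.4% at KO 2 h. At 8 h it stood at 13.7% in NC and 13.4% in KO. The part of this offset in the difference was not tested. XBP1 had the largest difference (2.79 ± 0.20 SE, edgeR adjusted p = 1.91e-13), followed by C6orf47 (2.72 ± 0.33, adjusted p = 4.65e-08), the SAGA subunit TADA1 (2.62 ± 0.39, adjusted p = 2.56e-06), CCDC71 (2.48 ± 0.51, adjusted p = 0.000298) and MPHOSPH10, a factor of ribosomal RNA processing (2.13 ± 0.20, adjusted p = 7.80e-11). XBP1 had 7.42 and 6.76 CPM at KO 8 h against 7.26 and 5.02 CPM at KO 2 h, beside the fall at NC 8 h given above. The 3 members with a value below 0 were CLK1 (-0.29 ± 0.23), TRIB1 (-0.18 ± 0.39) and PPP1R15A (-0.04 ± 0.18), none past the threshold.

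The counts by role stand beside those of the whole set. Of the 8969 genes with 10 CPM or more at NC 4 h and KO 6 h, 221 were members. The role counts are out of all listed genes, and not all of these reached that level. Among those that did were 24 of 42 early-response transcription factors, 18 of 41 growth factor and cytokine genes and 30 of 43 feedback inhibitors. So did 16 of 17 mRNA decay factors, 16 of 21 stress genes, 22 of 24 chromatin regulators and 17 of 23 ubiquitin genes. Among all members 92.8% rose at KO 4 h against 2 h and 84.2% fell at NC 8 h against 2 h. The role lists were drawn up with earlier results of these data known, so their counts are given as a description. Counts over a whole list include its members. By role, 9 of the 42 listed early-response transcription factors were members: CSRNP1, BHLHE40, CEBPB, BCL6, SOX4, ELF3, IRF2BP2, FOXQ1 and SERTAD2. All 9 rose at KO 4 h against 2 h (log2 changes 0.89 to 1.72), and 8 of 9 fell at NC 8 h against 2 h (-1.65 to -0.54). CSRNP1 was the exception at -0.59 ± 0.27 (edgeR adjusted p = 0.0795), with 2.25 and 1.07 CPM at NC 8 h against 2.49 and 3.26 CPM at NC 2 h. CEBPB, a leucine-zipper factor of acute responses, had 29.3 and 31.7 CPM at KO 4 h against 8.07 and 9.44 CPM at KO 2 h, and 12.1 and 13.5 CPM at NC 8 h against 33.9 and 43.1 CPM at NC 2 h. Over the whole list of 42, 27 rose and 0 fell at KO 4 h against 2 h (median 0.85), and 0 rose and 21 fell at NC 8 h against 2 h (median -0.58).

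Of 41 listed growth factor, cytokine and matricellular genes, 4 were members: the WNT antagonist DKK1, the vasoconstrictor endothelin EDN1, CCN1 and the TNF family ligand TNFSF9. EDN1 had 176 and 187 CPM at NC 4 h and 2.78 to 7.80 CPM at the other NC times, whereas it had 39.9 and 37.4 CPM at KO 6 h and 6.54 to 11.8 CPM at the other KO times. All 4 fell at NC 8 h against 2 h (-1.79 to -0.82), and all but EDN1 (0.30 ± 0.15, edgeR adjusted p = 0.124) rose at KO 4 h against 2 h. Over the 39 tested genes of the list, 11 rose and 5 fell at KO 4 h against 2 h (median 0.30), and 0 rose and 17 fell at NC 8 h against 2 h (median -0.66).

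A list drawn up as feedback inhibitors of signalling gave 13 members of 43: SOCS3, SOCS6, ERRFI1, SPRED2, TRIB1, SMAD7, TGIF1, NOG, PPP1R15A, PHLDA1, IRS2, ARRDC3 and RND3. IRS2 is counted with the list although it is an insulin receptor substrate. Of the 13, 10 rose at KO 4 h against 2 h and 6 fell at NC 8 h against 2 h. SOCS3, an inhibitor of cytokine signalling, had 86.8 and 95.3 CPM at KO 6 h and 3.97 to 8.64 CPM at the other KO times, with 31.8 and 27.4 CPM at NC 4 h and 4.91 to 7.20 CPM at the other NC times. PHLDA1 had 45.3 and 46.0 CPM at NC 4 h and 8.08 to 9.51 CPM at the other 4 NC times. Its log2 change at NC 8 h against 2 h was 0.04 ± 0.10 SE and did not pass the threshold. Over the 41 tested genes of the list, 23 rose and 3 fell at KO 4 h against 2 h (median 0.62), and 2 rose and 20 fell at NC 8 h against 2 h (median -0.58).

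Among 17 listed factors of mRNA decay and AU-rich elements 4 were members: ZFP36L2, which binds AU-rich elements, BTG1 and TOB1, which recruit deadenylases, and the ribosome rescue factor PELO. All 4 rose at KO 4 h against 2 h (1.57 to 2.50) and fell at NC 8 h against 2 h (-1.13 to -0.46). BTG1 had 26.8 and 22.0 CPM at KO 4 h against 3.76 and 3.74 CPM at KO 2 h. The whole list showed 8 rises and 4 falls at KO 4 h against 2 h (median 0.38) and 3 rises and 7 falls at NC 8 h against 2 h (median -0.25).

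The stress and unfolded protein response list of 21 held 5 members: DDIT4, PPP1R15A, XBP1, DNAJB1 and ADM. All 5 rose at KO 4 h against 2 h (0.54 to 2.50), and XBP1, DNAJB1 and DDIT4 fell at NC 8 h against 2 h. PPP1R15A, also called GADD34, which restores translation after stress, had 128 and 131 CPM at NC 4 h and 18.7 to 27.5 CPM at the other NC times, with 21.4 and 18.7 CPM at NC 8 h against 21.2 and 23.5 CPM at NC 2 h. The list as a whole showed 16 rises and 3 falls (median 0.83) at KO 4 h against 2 h, and 2 rises and 10 falls (median -0.63) at NC 8 h against 2 h.

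Chromatin and elongation regulators gave 5 members of 24 (among them PHF13, ING1, CITED2 and CITED4). A list drawn up around ubiquitin ligases, substrate receptors and deubiquitinases gave 6 of 23 (SIAH2, KBTBD7, RNF19A, RNF19B, MIDN and SPSB1). Of the chromatin members 4 rose at KO 4 h and 5 fell at NC 8 h against 2 h; of the ubiquitin members 5 rose and 4 fell. The full lists gave 19 rises and 1 fall at KO 4 h (median 0.73) and 0 rises and 16 falls at NC 8 h (median -0.55) for chromatin, and 17 rises and 1 fall (median 0.88) and 0 rises and 13 falls (median -0.80) for ubiquitin, all against 2 h. Targets of YAP/TEAD and SRF gave CCN1, AMOTL2 and NUAK2 of 21, with 12 rises and 4 falls at KO 4 h (median 0.47) and 3 rises and 10 falls at NC 8 h (median -0.61) over the list.

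Few members came from the remaining lists. The p53 and DNA damage list of 23 gave PLK2, the splicing list of 24 gave the kinase CLK1, and the clock list of 18 gave BHLHE40. At KO 4 h against 2 h these lists showed 12 rises and 1 fall (median 0.29), 9 and 5 (median 0.03) and 6 and 1 (median 0.42), and at NC 8 h against 2 h 0 and 10 (median -0.50), 1 and 14 (median -0.30) and 1 and 10 (median -0.58). None of the 18 genes listed as apoptosis regulators was a member, with 4 rises and 2 falls at KO 4 h (median 0.16) and 1 rise and 11 falls at NC 8 h (median -0.41). Of the 18, 12 had 10 CPM or more at NC 4 h and KO 6 h. The list did not hold the members FADD and BCL10, so it does not show that members lack apoptosis genes. CLK1 had 43.5 and 46.0 CPM at NC 4 h and 9.61 to 15.4 CPM at the other NC times. None of 73 cytosolic ribosomal protein genes was a member, and the list moved against the members, with 0 rises and 70 falls at KO 4 h (median -0.53) and 70 rises and 0 falls at NC 8 h (median 0.48). The 39 tested genes of families that the rule leaves out gave 18 rises and 4 falls at KO 4 h (median 0.41) and 2 rises and 16 falls at NC 8 h (median -0.32).

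A group noticed after the values were seen, and so given with no count as support, was that of ribosome production: MPHOSPH10, WDR43, NGDN and IMP3, all known factors of ribosomal RNA processing. WDR43 had 45.5 and 44.4 CPM at KO 4 h against 11.6 and 9.84 CPM at KO 2 h, and 23.8 and 22.0 CPM at NC 8 h against 84.6 and 92.3 CPM at NC 2 h. IMP3 had 20.5 and 20.1 CPM at KO 4 h against 4.10 and 4.70 CPM at KO 2 h, and 5.95 and 7.18 CPM at NC 8 h against 36.1 and 35.4 CPM at NC 2 h. The m6A readers YTHDF1 and YTHDF2 were also members: YTHDF2 had 61.7 and 64.0 CPM at KO 4 h against 14.5 and 15.0 CPM at KO 2 h, and 8.85 and 11.1 CPM at NC 8 h against 35.2 and 36.3 CPM at NC 2 h. In each case the pairs of libraries did not overlap.

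At 2 h the KO-labelled libraries were higher than the NC-labelled for 19 members and lower for 165, with a median log2 difference of -1.19 (all genes: 33.8% higher, 35.3% lower, median -0.03). At 8 h 69 were higher and 77 lower, with a median of -0.02 (all genes: 34.9% higher, 31.4% lower), shares near those of all genes. With scaling to ribosomal protein genes the 8 h split became 93 higher and 49 lower, and on the molecule scale 72 and 49, with all-gene medians of 0.42 and 0.26. Both comparisons carry the differences between the cells noted above. The 2 h comparison also sets NC 2 h, next before the high time NC 4 h, against KO 2 h, which is not next before KO 6 h. The median member stood at 30.9% of its highest mean at NC 2 h and at 13.4% at KO 2 h. The part of this offset in the 2 h difference was not tested.

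RHOB, a small GTPase gene without introns, had 2.86 and 1.35 CPM at KO 2 h against 79.3 and 92.1 CPM at NC 2 h, and 3.69 and 2.38 CPM at KO 8 h against 45.5 and 44.2 CPM at NC 8 h. The log2 differences were -5.19 ± 0.18 SE (edgeR adjusted p = 8.96e-18) and -3.87 ± 0.18 (adjusted p = 4.21e-15). The other large deficits at 2 h were those of the co-activator CITED4 (-4.36 ± 0.18), IRF2BP1 (-4.04 ± 0.18), IRS2 (-3.65 ± 0.13) and ELF3 (-3.50 ± 0.22), and at 8 h those of IRF2BP1 (-3.50 ± 0.23), IRS2 (-2.64 ± 0.14), CITED4 (-2.63 ± 0.19) and C15orf39 (-2.36 ± 0.35), all with edgeR adjusted p of 1.30e-07 or less. PHLDA1 had 89.3 and 90.7 CPM at KO 2 h against 8.99 and 9.04 CPM at NC 2 h, and 102 and 90.9 CPM at KO 8 h against 8.08 and 8.40 CPM at NC 8 h. ERRFI1 had 105 and 98.1 CPM at KO 2 h against 15.8 and 12.1 CPM at NC 2 h, and 122 and 112 CPM at KO 8 h against 6.84 and 6.30 CPM at NC 8 h. Their log2 differences were 3.49 ± 0.08 and 3.58 ± 0.08 for PHLDA1 and 3.04 ± 0.08 and 4.18 ± 0.09 for ERRFI1 at 2 h and 8 h. Next came the apoptosis and NF-kappa-B adaptor BCL10 (2.37 ± 0.16 and 2.82 ± 0.17), CDC42EP3, an effector of the GTPase CDC42 (2.26 ± 0.15 and 2.91 ± 0.16), DKK1 at 2 h (1.77 ± 0.19) and CCN1 at 8 h (2.80 ± 0.09), with edgeR adjusted p of 1.31e-07 or less for each.

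Steady-state libraries had no part in the choice of members. Of 221 members 220 passed the count filter there and were tested with 17240 genes in all. KO was higher than NC for 71 and lower for 62, with a median log2 difference of 0.09 (all genes: 24.4% higher, 26.3% lower, median 0.02). Without KO replicate 3 the number lower was 41. Replicates 1 and 2 of KO differed from each other more than any other pair of replicates of 1 group: SLC38A2, an amino acid transporter, had 1186, 709 and 878 CPM in KO, against 977, 947 and 996 CPM in NC (-0.16 ± 0.15, edgeR adjusted p = 0.399).

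PPP1R15A had 31.7, 35.5 and 42.4 CPM in KO, against 15.3, 16.5 and 15.0 CPM in NC. The 3 KO libraries lay above the 3 NC libraries, and the log2 difference was 1.14 ± 0.12 SE (edgeR adjusted p = 7.50e-05), the largest rise among the members. TIPARP, a mono-ADP-ribosyltransferase induced by the aryl hydrocarbon receptor, had 153, 118 and 134 CPM in KO, against 66.7, 64.3 and 67.3 CPM in NC (0.95 ± 0.10, adjusted p = 8.15e-05). The cyclin F gene CCNF (0.93 ± 0.08, adjusted p = 4.00e-05), TENT5B (0.87 ± 0.08, adjusted p = 5.28e-05) and FKBPL (0.86 ± 0.11, adjusted p = 0.000268) followed. RLF, a zinc finger factor, had 30.5, 19.4 and 21.0 CPM in KO, against 62.9, 56.4 and 62.3 CPM in NC (-1.44 ± 0.15, adjusted p = 8.63e-05). CDC42EP3 (-1.30 ± 0.15, adjusted p = 0.000139), the chromatin remodeller CHD1 (-1.28 ± 0.15, adjusted p = 0.000137), the sialic acid phosphatase NANP (-1.18 ± 0.14, adjusted p = 0.000144) and HIVEP1, a zinc finger factor (-1.13 ± 0.16, adjusted p = 0.000449), fell next most. In none of these 10 did a KO library fall among the NC libraries.

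**Figure D5:**
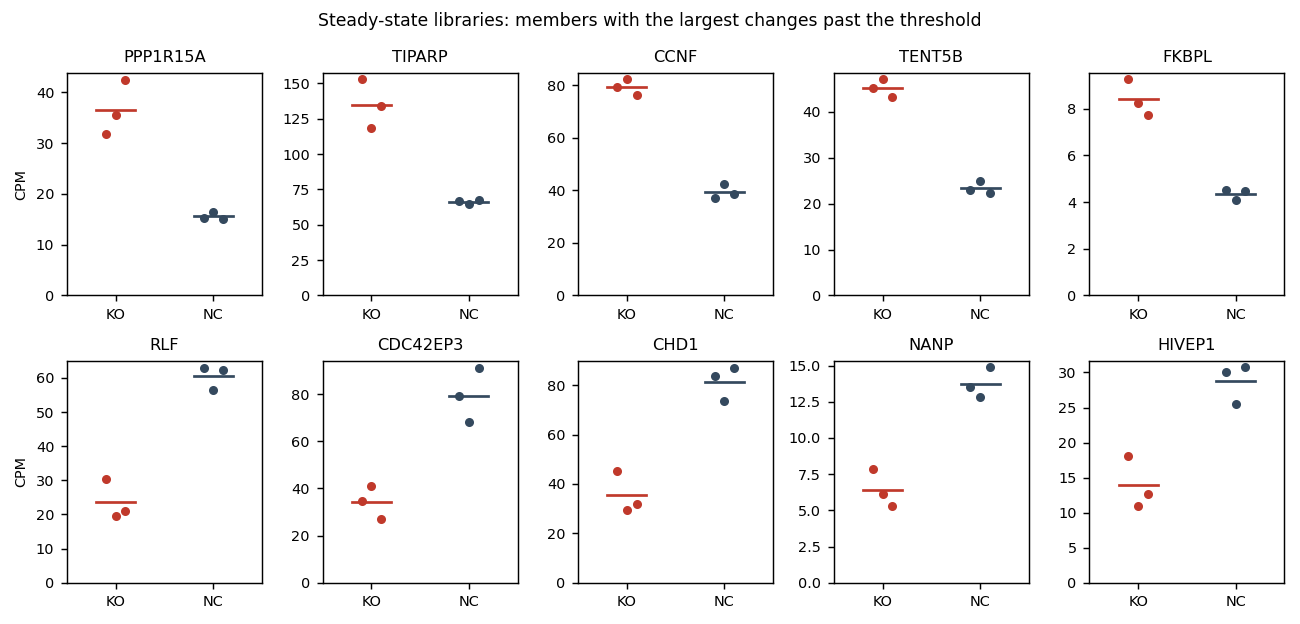
CPM of the 5 members with the largest rise (top row) and the 5 with the largest fall (bottom row) past the threshold in steady-state KO against NC; points are the 3 libraries of each group and bars their means. KO points lie above NC points in every upper panel and below them in every lower one.

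Of the members with large differences between the labels under actinomycin D, RHOB was at 48.6, 47.4 and 47.7 CPM in steady-state KO, against 39.4, 40.6 and 37.2 CPM in NC (0.21 ± 0.07, edgeR adjusted p = 0.0388), and PHLDA1 at 608, 519 and 575 CPM in KO, against 769, 785 and 788 CPM in NC (-0.54 ± 0.07, adjusted p = 0.000283). Of the members with the largest folds, NUAK2 was higher in KO, at 15.5, 18.5 and 16.4 CPM against 11.9, 9.94 and 10.1 CPM in NC (0.58 ± 0.11, adjusted p = 0.00188). CCN1 (0.23 ± 0.12), SGK1 (-0.09 ± 0.08) and ELF3 (0.00 ± 0.08) did not pass the test, with edgeR adjusted p of 0.125, 0.351 and 0.982.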

How the data were processed

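Members and gene lists were chosen with earlier results of these data known. The actinomycin D tables that the authors deposited hold, per the file headers, counts, RPKM and a log2 molecule value per gene, and the steady-state tables hold expected counts (rounded to whole numbers here, since 10.2% were not whole) and TPM. STAR, RSEM, Bowtie2, deepTools and hg19 are named in the submitters' processing notes; those notes give neither roles nor versions, and the labels do not say whether strand was used. The deposited RPKM and TPM entered no test, and the deposited log2 molecule value served as an alternative. The 37 mitochondrial genes had 0 counts in the actinomycin D tables.

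Plain CPM chose the members. Tests used edgeR 4.0.16 in R 4.3.3 (filterByExpr, TMM, robust quasi-likelihood F test, Benjamini-Hochberg at 0.05) over all 20 actinomycin D libraries with one mean per label and time, and over the 6 steady-state libraries. Log2 changes come from these fits with SE, the absolute log2 change over the square root of F. Alternatives were RLE size factors, DESeq2 1.42.0, no low-count filter, a replicate block, limma 3.58.1 on the log2 molecule value, scaling to 73 ribosomal protein genes and leaving out each library, where a group left with 1 library was assumed to vary like the others. The fits were tested on simulated counts. Replicates of a group differed beyond sampling noise (chi-square per degree of freedom 3.81 to 42.8 over genes with at least 20 counts) and were kept apart.

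Named genes were the 12 members with the largest smaller fold, the 8 with the highest smaller CPM at the chosen times, members of the role lists, up to 5 members with the largest change in each direction of a comparison, and the genes next to the fold threshold. 1 of the genes in the role lists is not named here. Other genes named were chosen after their values were seen. Sequences are RefSeq's, GRCh38.p14. The cell type marker lists are given with their summed levels.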

Additional observations from a re-analysis of the deposited data

Results flagged for a closer look

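The 8 h against 2 h change differed between the labels for 162 members, all with the KO-labelled change more positive than the NC-labelled one (test of the difference itself, edgeR adjusted p under 0.05). The largest differences were those of XBP1 at 2.79 ± 0.20 SE and C6orf47 at 2.72 ± 0.33 on the log2 scale, and all-gene shares were 11.1% positive and 10.8% negative. Leaving out single libraries gave 132 to 144 members, and 0 negative in each case. The labels of these libraries also went with CDKN2A, KRT19 and KRT7, so this difference cannot be told apart from one between the cells. The 2 h baseline also differed: NC 2 h is next before the high time that chose the members, and KO 2 h is not. The median member stood at 30.9% of its highest mean at NC 2 h and at 13.4% at KO 2 h. The part of this offset in the difference was not tested.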

How the results depend on the processing

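The number of members was 408 with a fold of 3, 63 with a fold of 6 and 437 with scaling to ribosomal protein genes, against 221, and 215 to 224 when single libraries were left out. For KO 8 h against 2 h, 4 members were higher in the main fit, 7 by DESeq2, 0 on the molecule scale, 2 with ribosomal scaling and 0 to 1 without single libraries. The 3 lower became 164 on the molecule scale, 5 with ribosomal scaling and 1 to 2 without single libraries. Lower at 8 h in KO against NC were 49 on the molecule scale and 49 with ribosomal scaling, against 77. Without single libraries, 0 to 1 member was higher at NC 8 h against 2 h, and 55 to 87 were higher and 41 to 68 lower at steady state. On the molecule scale FBXO5 (-0.28) and ERRFI1 (-0.91) reversed at KO 8 h against 2 h. The cause was not tested. The other 167 alternative counts stayed within 1.5 times the main count, and of the alternative values of named genes 563 kept their call, 24 did not pass and 2 reversed.

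Scaling moved all genes: the median change at NC 8 h against 2 h was -1.32 on the molecule scale (4 of 13988 genes higher, 11920 lower) and -0.49 with ribosomal scaling, with members at -2.24 and -1.47. At KO 4 h against 2 h ribosomal scaling gave 0.40 over all genes and 1.93 over members. Same-numbered libraries deviated together at a correlation of -0.087 to 0.090 in the actinomycin D set and -0.28 to 0.219 at steady state, so the numbers were not taken as pairs. With a replicate block 149 and 185 members fell at NC 6 h and 8 h, 203 rose at KO 4 h, 4 rose and 3 fell at KO 8 h, all against 2 h, 160 differed between labels, 19 and 165 were higher and lower in KO at 2 h, 68 and 76 at 8 h, and 68 and 58 at steady state. Members at under 1 CPM at 2 h, such as FKBPL, rest on few counts.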
